A study of Mus musculus with 696 samples.

Results

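Wound-activated keratinocytes are epidermal cells that switch on stress keratins, alarmins and protease inhibitors when skin is injured. Here they were picked by a score over 6 genes, Krt6b, Krt16, S100a8, S100a9, Stfa1 and Fabp5. The counts of each cell were scaled to a total of 1000000 (CPM), log2(CPM + 1) was standardised for each gene over all 696 cells, and the score was the mean of the 6 standardised values (z). The 110 cells with the highest score, of 696 in all, are called members below, and the other 586 are called other cells. A limit of 1000 CPM of Ptprc, the common antigen of white blood cells, was set to leave out immune cells, and it removed 0 of the 110. Only 2 cells of the series were above it, and the 3 members with any Ptprc count reached at most 72.7 CPM.

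The study followed descendants of Lrig1-expressing stem cells of the upper hair follicle through 2 wounds placed on the same spot of mouse tail skin. All animals were female, on a CBA C57BL/6 mixed background, and carried Lrig1-EGFP-ires-CreERT2 together with the reporter Rosa26-fl/STOP/fl-tdTomato. Hydroxytamoxifen was painted once on the tail at 6 to 8 weeks of age, before any wound, so the Lrig1 promoter drives the Cre and every group, unwounded skin included, carries the same alleles and drug. Cells positive for tdTomato were sorted singly into plates from tissue with the wound bed and follicles away from it, and sequenced by Smart-seq2, a full-length method without molecular identifiers. Skin was taken unwounded (0w), a week into healing of the first full-thickness wound (1w pw1), at week 8 of the same wound (8w pw1) and a week into healing of the second (1w pw2, week 9 in the labels). Each time point had 2 plates, the replicates of the labels. The study's methods describe independent experiments with several biological replicates, but neither they nor the labels say which animals a plate holds, so p-values measure only the spread between plates. Both plates of a time point also carry the same unexplained replicate letter in their titles, and that letter and the time point cannot be told apart.

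Keratinocytes of unbroken skin divide in the basal layer, where they make Krt5 and Krt14, and pass into the spinous layer, where they make Krt1 and Krt10. At a wound edge they add the keratins Krt6 and Krt16, which form filaments in stressed epithelium. They also release S100a8 and S100a9, a pair of calcium-binding proteins that signal danger and bind metals needed by microbes, and small cysteine and serine protease inhibitors of the stefin and serpin families.

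Each of the 8 plates held 79 to 91 cells with 1.23e+07 to 1.98e+07 counts, and the 696 columns had 0 identical pairs. Members had a median of 172649 counts and 5200.5 detected genes, against 122088 counts and 4354.5 genes in other cells of all plates. Their median count was the higher on 3 of the 4 plates of the healing weeks, but on 1w pw1 replicate 2 it was 215240 against 268553. When each cell was thinned to 50000 counts, which left out 10 members and 126 other cells, the medians came to 3811 and 3551 genes. Within members the score had a Spearman correlation of 0.22 with the total count (110 cells), so depth moved only weakly with rank among them. The part of depth in the results below was not tested.

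Members came mostly from the plates of the healing weeks, 1w pw1 and 1w pw2. There were 0 of 88 and 0 of 91 at 0w, which by a limit of 3 cells allows shares of up to 3.41% and 3.30%, with exact upper bounds of 4.11% and 3.97%. On the 1w pw1 plates members were 32 of 89 cells (36.0%, exact Clopper-Pearson 95% interval 26.1 to 46.8) and 26 of 79 (32.9%, 22.7 to 44.4). On the 1w pw2 plates they were 23 of 86 (26.7%, 17.8 to 37.4) and 22 of 91 (24.2%, 15.8 to 34.3). At 8w pw1 6 of 85 cells (7.06%, 2.63 to 14.7) and 1 of 87 (1.15%, 0.0291 to 6.24) were members. These intervals and limits cover counting error only. The share is what the rule yields, and the rule genes were chosen with their time course known. The shares are thus a description. The mean share was 34.4% ± 2.15 (SD, n = 2 plates) at 1w pw1 and 25.5% ± 1.82 (SD, n = 2) at 1w pw2. Both plates of the first healing lay above both of the second, by 8.97 percentage points on average.

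**Figure D1:**
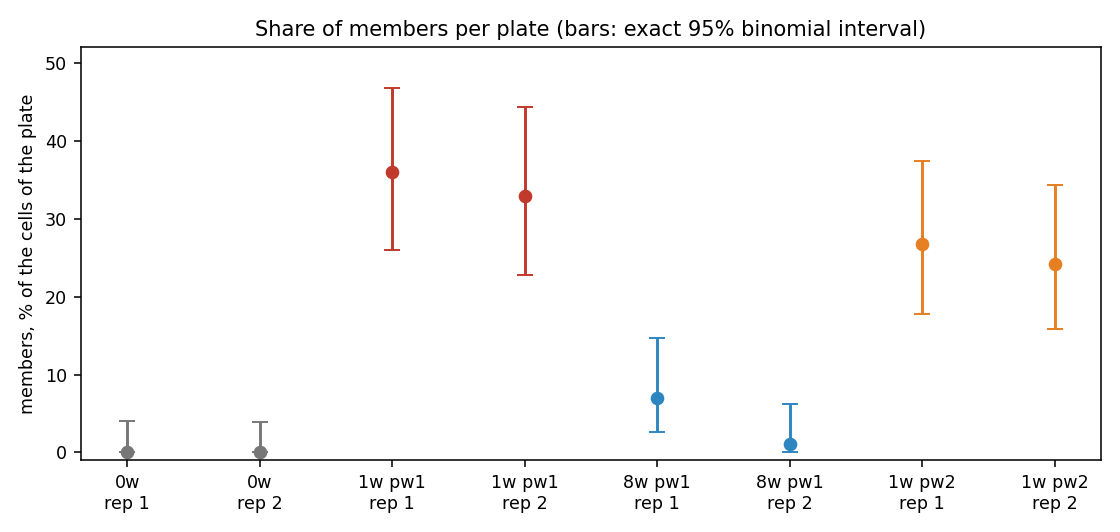
Share of members among the cells of each plate, in percent, with exact 95% binomial intervals as bars and 1 point per plate (rep stands for the label replicate). The 1w pw1 plates stand at 36.0% and 32.9%, the 1w pw2 plates at 26.7% and 24.2%, the 8w pw1 plates at 7.06% and 1.15%, and both 0w plates at 0.

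The score had no gap at the limit. The last member scored 0.433 and the first cell left out 0.430, and 11 members and 10 other cells lay within 0.1 of that limit. Above it the range was wide, with a median of 1.45 and a highest score of 3.45, while other cells had a median of -0.317. The highest score at 0w was -0.0764 on replicate 1 and 0.101 on replicate 2. All 6 genes were detected in 46 members, 5 in 25, 4 in 19 and 3 in 20, and no other cell had more than 4. The members are thus the upper end of a continuous range.

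**Figure D2:**
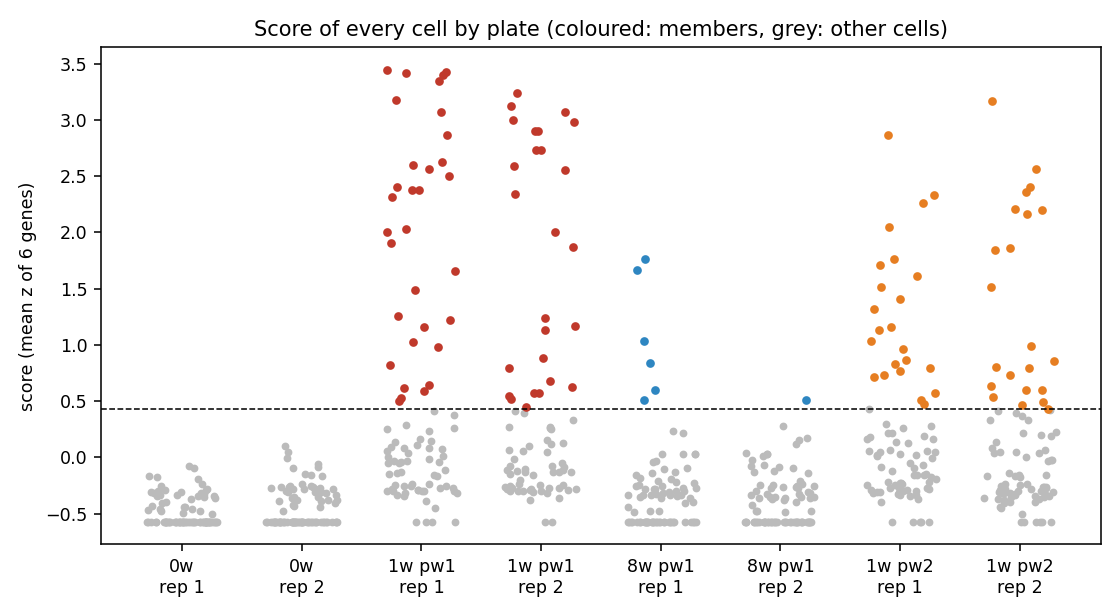
Score (mean z of the 6 rule genes, no unit) of each of the 696 cells by plate, with members coloured by time point and other cells in grey, and the limit as a dashed line. Cells of the healing plates run upward from the limit without a break to 3.45, and no 0w cell passes 0.101.

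The rule genes themselves are given first, as levels in the summed counts of the members of a plate, in the order 1w pw1 replicates 1 and 2, 8w pw1 replicate 1, 1w pw2 replicates 1 and 2. These 5 plates held at least 5 members each. Because the rule used these genes, their values describe the choice and support nothing.

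Krt6b (chromosome 15, 101676023 to 101680287, minus strand, GRCm38) stood at 8549, 6903, 0, 339.8 and 843 CPM, against 0.103 to 1.23 CPM in other cells of the same plates. Krt16 (chromosome 11, 100246091 to 100248902, minus strand), a partner of the Krt6 keratins, stood at 3975, 4967, 328, 836 and 2713 CPM, against 5.36 to 119 CPM. Both stress keratins were highest in the first healing, and Krt6b was at 0 in the members of 8w pw1 replicate 1. S100a8 (chromosome 3, 90668978 to 90670035, plus strand) stood at 20285, 7374, 3998, 2303 and 3025 CPM, against 3.57 to 24.7 CPM. Its partner S100a9 (chromosome 3, 90692632 to 90695721, minus strand) stood at 3275, 774, 128, 71.4 and 290.1 CPM, against 0 to 1.10 CPM. The alarmin pair stayed at 24.7 CPM or less in other cells on all 5 plates. Stfa1 (chromosome 16, 36276951 to 36285373, plus strand), a stefin that blocks cysteine proteases, stood at 3074, 2314, 1051, 949 and 1282 CPM, against 2.25 to 62.2 CPM. Fabp5 (chromosome 3, 10012548 to 10016607, plus strand), which carries fatty acids inside epidermal cells, stood at 71612, 62361, 2617, 20087 and 23359.9 CPM, against 352 to 2198 CPM. By the choice of cells, 5 of the 6 genes did not overlap between members and other cells over these 5 plates. That order was seen in 0.716% of the 12712 genes at 1 CPM or more.

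Single cells weighed heavily on some of these sums. The highest cell held 31.4% of the S100a9 counts of all members, 27.9% of those of S100a8 and 25.3% of those of Krt6b, but 9.77% of those of Fabp5 and 9.49% of those of Krt16. Other cells of the 0w and 8w pw1 plates differ from members in time point as well, so shares of cells with a count are given below for the 4 plates of the healing weeks alone, with 103 members and 242 other cells. There S100a8 was detected in 86.4% of members and 14.9% of other cells, Krt6b in 69.9% and 4.55%, and Fabp5 in 100% and 90.5%. After thinning, which kept 94 and 203 cells, these shares were 84.0% and 11.3%, 61.7% and 2.96%, and 100% and 89.7%. Fabp5 thus set members apart by its level, with a median of 27056 CPM per member and 467 CPM per other cell, and hardly by its presence. Among members the 6 genes were linked to different degrees. Over the 110 cells the Spearman correlation was 0.83 between S100a8 and S100a9, 0.66 between Krt6b and Fabp5, 0.63 between Krt6b and Krt16, and 0.19 between Krt16 and Stfa1. These cells share plates and differ in depth, so the correlations are descriptions.

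The 7 members of 8w pw1 had part of this program. Krt6b was at 0 in 7 of 7, while Krt16 was detected in each, from 107 to 1303 CPM per cell. S100a8 was detected in 5 of them and reached 9020, 8957 and 6105 CPM in the 3 cells that scored highest. The others scored 0.838 or less, and 1 of them was the only member of replicate 2, with 14459 counts. A single cell gave 30.6% of the member counts of replicate 1.

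Members were then set beside the other cells of their own plate across all genes. The log2 ratio of member CPM to other-cell CPM was taken with 1 CPM added to both, on the 5 plates, which pulls ratios of low genes toward 0. The rule fixed this contrast, so it carries no test. Of 11553 genes at 1 CPM or more in members, 63 (0.545%) were over 2-fold higher in members on each of the 5 plates and 175 (1.51%) over 2-fold lower. Leaving out a plate moved these counts. Without 8w pw1 replicate 1, with 6 members, 191 were higher. Without 1w pw2 replicate 1 or replicate 2, 347 and 272 were lower. A rule over fewer plates is easier to meet. The 25 genes with the highest median ratio (mean of at least 50 CPM in members, same direction on all 5 plates) included 5 of the 6 rule genes. The other 20 had medians from 2.91 to 7.84 on the log2 scale, and 15 of them were over 2-fold higher on every one of the plates.

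The cornified envelope is the protein shell that surface keratinocytes build under their membrane, and its small proline-rich proteins were among the strongest marks of the members. Sprr2a2 stood at 3724, 6301, 2823, 5986 and 10179 CPM in members, against 3.36 to 162 CPM in other cells, a median log2 ratio of 7.84 (4.51 to 9.34). Sprr2a3 (6.27), Sprr2a1 (5.54), Sprr1b (3.94) and Sprr2b (2.88) were likewise over 2-fold higher on each plate. In the background of the lists, 12712 genes at 1 CPM or more in either kind of cell, 63 (0.496%) were over 2-fold higher on each plate and 231 (1.82%) lower. In the same background 31% of genes had a median ratio above 0, 3.82% were higher on all 5 plates at any size and 16.9% lower, and on the 4 plates of the healing weeks 1.5% were over 2-fold higher on each and 2.55% lower. Of the 18 envelope genes measured, 5 were over 2-fold higher and 0 lower on every plate, and the list median was 0.11 against -0.32 over all genes. On the 4 plates of the healing weeks 7 of 18 were over 2-fold higher on each. Involucrin, Ivl, an early scaffold of the envelope, had a median ratio of -2.62, and Sprr1a one of -2.03. Periplakin, Ppl, lay at -0.97 and was lower on each plate, while the crosslinking enzyme Tgm3 lay at 2.20.

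Stefins, small inhibitors of cathepsins, stood high as a family. Of 6 members of the stefin A cluster on chromosome 16 besides Stfa1, 6 had a median ratio above 0 and 2, Csta1 (4.85) and Stfa3 (4.41), were over 2-fold higher on every plate, with a list median of 4.63, and 5 of 6 were so on the 4 plates of the healing weeks. Stfa3 stood at 4658, 3635, 404, 2141 and 1036 CPM in members and at 18.0 to 535 CPM in other cells. Csta3 stood at 562, 126, 0, 9.02 and 63.6 CPM, so it was absent from the members of 8w pw1 replicate 1. Cstdc5, a further cystatin-type gene outside the list, lay at 22805, 14109, 3315, 9549 and 7127 CPM, against 64.7 to 293 CPM in other cells. Copies of these genes, of the Sprr2a genes and of Krt6a and Krt6b are nearly identical, and how reads were divided among them is uncertain.

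Clade B serpins block serine and cysteine proteases within the epidermis. Their list median was 1.64 over 13 genes, with 1 over 2-fold higher and 0 lower on every plate and 3 higher on the 4 plates of the healing weeks. The gene that held on all 5 was Serpinb3a, at 80.1, 415, 25.9, 57.2 and 518 CPM in members and 0.331 to 62.0 CPM in other cells (median ratio 5.06). Serpinb12 lay at 1.64 and Serpinb5, which nearly all cells made, at 0.56, both higher in members on each plate.

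**Figure D3:**
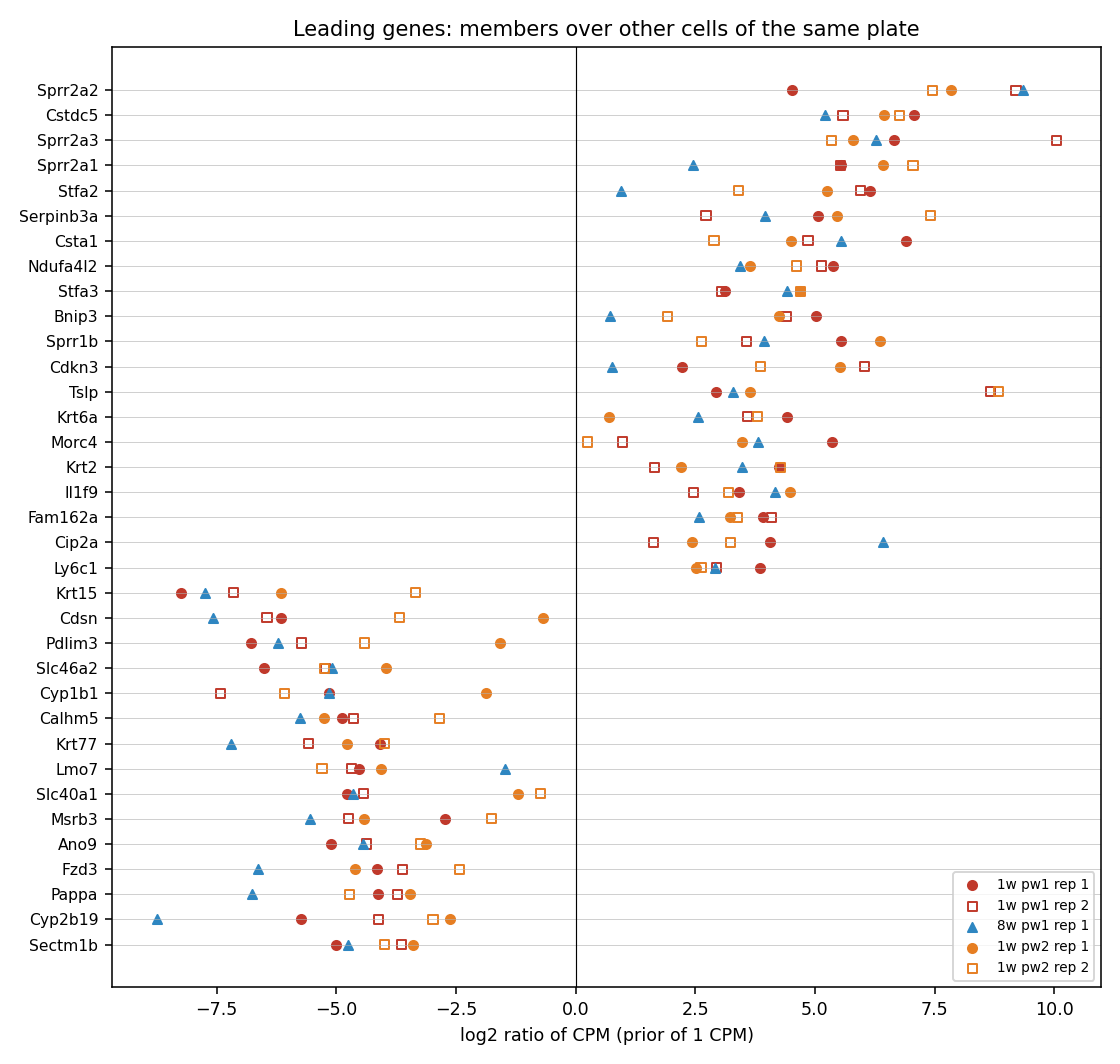
Log2 ratio of CPM in members to CPM in other cells of the same plate (1 CPM added to both) for the 20 highest genes outside the rule and the 15 lowest, with 1 symbol per plate. Sprr2a2 leads at a median of 7.84 and Krt15 lies lowest at -7.14.

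Among signals to other cells, 2 cytokines were over 2-fold higher on each plate. Il1f9, the gene of the interleukin-36 gamma that keratinocytes release when damaged, stood at 159, 170.5, 88.5, 101.3 and 187 CPM in members and 3.61 to 30.1 CPM in other cells (median ratio 3.41). Tslp, an alarm cytokine that acts on dendritic cells, stood at 7.39, 407, 17.5, 19.6 and 491 CPM, but 1 cell held 54.1% of its member counts and it was detected in 22 of 110 members. Of the 14 cytokine genes measured 8 had a median ratio above 0, against 31% of all genes. Il33 lay at 2.70 but was below 0 on 1w pw2 replicate 1 (-1.14). Of the EGF family, Epgn (epigen) lay at 6.25 and 6.39 in the first healing and at 0, 1.31 and -0.59 on the later plates, and Btc (betacellulin) lay at -3.47 and was over 2-fold lower on each plate. The alarmin list of 14 genes had a median of 0.70, with 0 over 2-fold higher on every plate and 1 lower, Defb6, a beta-defensin of the follicle opening, at 387, 962, 592, 460.5 and 405 CPM in members and 2738 to 13494 CPM in other cells (-3.73). On the 4 plates of the healing weeks 3 of 14 were over 2-fold higher on each, and 77 of 103 members had an alarmin score above the other-cell median.

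S100a8 and S100a9 are also abundant in neutrophils, so markers of other lineages were read in each member. Of the 6 other neutrophil markers in the table, 0 exceeded 100 CPM in any member and Mpo was at 0 in all 110. Their summed level had a median of 0 CPM and a maximum of 81.1 CPM in members, with Csf3r in 1 of 110 members and 10 of 586 other cells, and Cxcr2 in 25 of 110 and 55 of 586 at 81.1 CPM or less. Of 5 macrophage markers 1 exceeded 100 CPM in a member, Wfdc17, which was seen in 32 members and reached 26310 CPM. Its member counts came to 43.8% from 1 cell, its ratio ran from -5.33 to 8.83 between plates, and Csf1r, Cd68, Cd14 and Ms4a7 stayed at 25.5 CPM or less. The summed T cell, melanocyte and fibroblast markers had medians of 0 CPM in members, with maxima of 133, 93.0 and 1087 CPM, and of the fibroblast genes Sparc reached 956 CPM in a member. Of 6 Langerhans cell markers 4 exceeded 100 CPM in a member. H2-Ab1 had counts in 12 of 110 members and 10 of 586 other cells (4 members over 100 CPM, at most 271 CPM), H2-Aa reached 159 CPM and Mfge8 171 CPM, and Cd74 stayed at 75.9 CPM or less. Epcam, which keratinocytes also make, had counts in 63 of 110 and 417 of 586. The part of such cells in the results was not tested. Pecam1, an endothelial marker, had counts in 106 of 110 members and 581 of 586 other cells, while Kdr was at 0 in members. Krt14 was detected in 91.8% of members and Krt10 in 89.1%, so the keratinocyte label holds for most of them. No caller for doublets was run on these sorted single cells.

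Members drew on both layers of the epidermis. Krt10 stood at 25916, 30473, 6116, 9189 and 42668 CPM in members and 2204 to 16410 CPM in other cells. In these sums its median log2 ratio was 1.47, above 0 on all plates, but a single cell held 20.8 to 60.9% of its member counts on a plate. Its median per cell was lower in members on 1w pw1 replicate 2 (4058 against 5490 CPM) and 1w pw2 replicate 1 (395 against 2627 CPM). It was higher in members on 1w pw1 replicate 1, 8w pw1 replicate 1 and 1w pw2 replicate 2. Krt14 stood at 6277, 6925, 3843, 6189 and 3718 CPM against 1282 to 3179 CPM, a median ratio of 1.40, also above 0 on all plates. On the plates of the healing weeks both were detected in 82 of 103 members (79.6%) and 172 of 242 other cells (71.1%), and Krt10 alone in 88.3% of members and 88.8% of other cells. Krt2, a keratin of the mature spinous cell, had a ratio of 3.47, but 1 cell held 40.8% of its member counts. On each of the 5 plates a single cell held from 65.1 to 95.2% of the Krt2 counts of members. On the plates of the healing weeks Krt2 was detected in 34.0% of members and 27.7% of other cells, with a median of 0 CPM in both. Of the 13 spinous genes 1 (Krt2) was over 2-fold higher and 1 (Krt77) lower on every plate, with a median of 0.55. Of the 14 basal genes 0 were higher and 1, Krt15, lower, with a median of 1.18. In that list Itgb1, an integrin that anchors cells to the basement membrane, had a median ratio of 2.67 but stood at -0.86 at 8w pw1. Of 11 granular genes 1 was over 2-fold higher and 0 lower on every plate, with a median of -0.68 in the summed counts, and Klk7, a protease of shedding skin, lay at -3.27. Cdsn, the corneodesmosin that holds surface cells together, lay at -6.16, from -7.59 to -0.67 between plates. On the plates of the healing weeks it was detected in few cells of either kind, 10.7% of members and 14.9% of other cells.

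Each list was also scored in each cell as the mean z over its genes, where no single cell can carry a list. On the plates of the healing weeks the spinous score had a median of 0.39 in members and 0.41 in other cells, and the basal score -0.35 and -0.39. The granular score had a median of 0.17 in members and -0.05 in other cells, with 66 of 103 members above the latter, so by cell it lay the other way from the ratio of sums. The envelope score had a median of 0.46 in members and -0.05 in other cells, with 93 of 103 members above the latter. The members were spread along a line from basal to spinous. Over the 110 members the spinous score had a Spearman correlation of -0.74 with the basal score and of -0.49 with the cell cycle score, and the basal score one of 0.57 with the cell cycle score. The spinous score ran from -0.80 to 1.46 and the basal score from -1.08 to 1.56. Their correlations with the total count of a cell were 0.01 and 0.17. By plate, the median spinous score of members was 0.38, 0.36, 0.21, 0.54 and 0.53, and the median basal score -0.45, -0.35, 0.49, 0.09 and -0.39. The rule score itself had a correlation of -0.20 with the spinous score and 0.09 with the basal score.

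**Figure D4:**
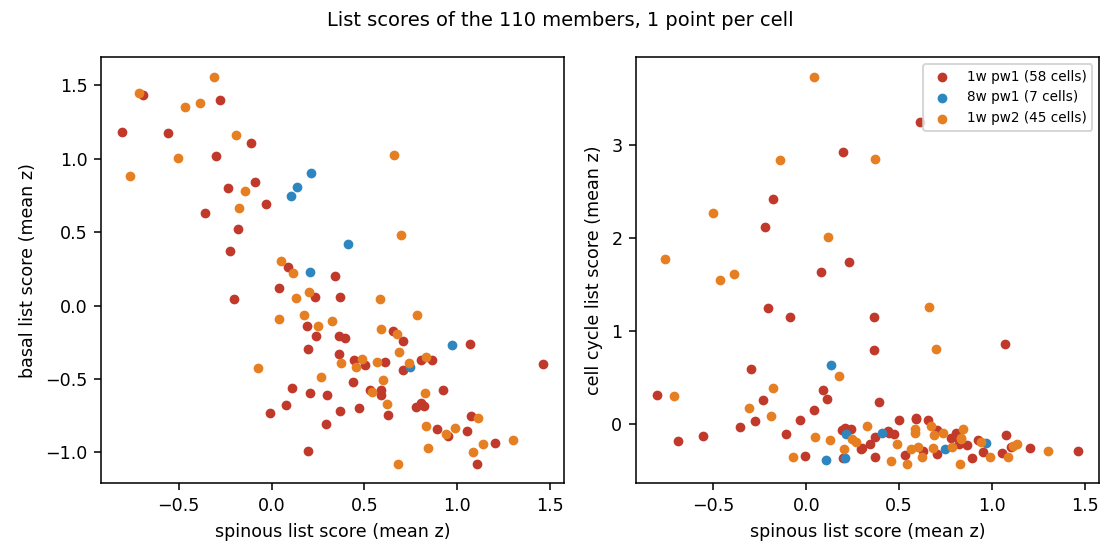
Scores of gene lists (mean z over the genes of a list, no unit) in the 110 members, with 1 point per cell coloured by time point. Cells high in basal genes are low in spinous genes (Spearman -0.74), and cell cycle scores are lower where spinous scores are higher (Spearman -0.49).

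Genes of cell division were higher in members of the healing plates. Of the 25 cell cycle genes 24 had a median ratio above 0 (31% of all genes), with a list median of 2.0, but 1 was over 2-fold higher on every plate. On 8w pw1 replicate 1 the list median was -1.54, and on the 4 plates of the healing weeks 11 of 25 were over 2-fold higher on each, against 1.5% of all genes. The gene that held on all 5 was Mki67, a marker of dividing cells, at 40.2, 84.7, 67.3, 85.9 and 104.9 CPM in members against 2.98 to 32.2 CPM in other cells. Cenpf, of the kinetochore, had a median ratio of 3.47, from -2.25 at 8w pw1 to 4.80. On those 4 plates Mki67 and Top2a were detected together in 23 of 103 members (22.3%) and 9 of 242 other cells (3.72%). After thinning, Mki67 was seen in 28.7% of members and 11.3% of other cells (33.98% and 13.2% before). Cdkn3 and Cip2a, which act in mitosis, were among the leading 20 at 3.87 and 3.23.

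Sugar breakdown stood out as a pathway. Glycolysis turns glucose into lactate in the cytosol, and cells short of oxygen raise it through the hypoxia-inducible factors. Of 14 glycolysis genes measured 14 had a median ratio above 0 (31% of all genes) and 10 were higher in members on all 5 plates (3.82% of all genes), 4 of them over 2-fold (Slc2a1, Eno1, Pkm and Slc16a3), while 0 were over 2-fold lower. On the 4 plates of the healing weeks 9 of 14 were over 2-fold higher on each. The list median was 1.89 against -0.32 over all genes. The glucose transporter Slc2a1 stood at 129.5, 94.4, 170.5, 447 and 282 CPM in members and at 10.8, 18.6, 65.9, 72.1 and 60.2 CPM in other cells. The pyruvate kinase gene Pkm stood at 364, 371, 402, 817 and 828 CPM against 62.0, 53.8, 117, 139 and 298 CPM. In both genes every member value was above every other-cell value of the 5 plates, as in 0.716% of all genes. For Slc2a1, however, a single cell held 69.7% of the member counts on 8w pw1 replicate 1 and 71.6% on 1w pw2 replicate 2. The lactate exporter Slc16a3 was detected in 27.2% of members and 1.65% of other cells on the plates of the healing weeks. After thinning, Slc2a1 was detected there in 64.9% of members and 26.6% of other cells (68.9% and 37.6% before).

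Targets of the hypoxia-inducible factors leaned the same way. Of 13 measured 12 had a median ratio above 0 (31% of all genes) and 6 were higher on every plate (3.82%), with a list median of 1.42, and 5 were over 2-fold higher on each of the 4 plates of the healing weeks. Egln3, the oxygen-sensing enzyme that is itself such a target, was the 1 gene over 2-fold higher on every plate (1.08 to 1.63). Bnip3, a mitochondrial protein that directs worn mitochondria to disposal, stood at 192, 450.1, 177, 163 and 323 CPM against 4.94, 20.5, 107, 7.72 and 84.3 CPM. Fam162a and Ndufa4l2, which also sit in mitochondria and are known to answer low oxygen, were among the leading 20, at median ratios of 3.37 and 4.61. Over the 110 members the glycolysis and hypoxia scores had a Spearman correlation of 0.79.

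The hypoxia-inducible factors bind the core letters ACGTG, so the 250 bases before the start of these genes were searched for them on both strands, counting overlapping matches. ACGTG is also part of CACGTG, the site of other factors such as Myc. Of the 27 genes measured in the glycolysis and hypoxia lists, 25 had a promoter in RefSeq (build GRCm38.p6), and 16 of them (64%) held ACGTG in at least 1 window, 7 of 14 of the glycolysis list and 9 of 11 of the hypoxia list. Among all 12162 genes of the table with a promoter 23.2% held it, and among all 32851 RefSeq windows of this length 16.6%. Of the 25 genes highest in members 20 had a promoter and 4 (20%) held it. The motif TGANTCA, bound by AP-1, the Fos and Jun dimer that answers injury, was in 1 of those 20 (5%) and in 6.54% of the genes of the table. The hypoxia list was drawn up from known targets of these factors, so its share describes the list and says nothing of the members, and the genes highest in members held the motif at about the share of all genes. A match is not a site, and base composition was not matched between the sets. The windows of 4 genes that were higher in members on each plate are shown because they hold the motif, in capitals, read 5′ to 3′ on the strand of the gene. They lie at chr7:138909507-138909756 (minus strand) for Bnip3, chr4:119108495-119108744 (plus strand) for Slc2a1, chrX:106186850-106187099 (plus strand) for Pgk1, an enzyme of glycolysis, and chr16:36071562-36071811 (minus strand) for Fam162a.
Bnip3: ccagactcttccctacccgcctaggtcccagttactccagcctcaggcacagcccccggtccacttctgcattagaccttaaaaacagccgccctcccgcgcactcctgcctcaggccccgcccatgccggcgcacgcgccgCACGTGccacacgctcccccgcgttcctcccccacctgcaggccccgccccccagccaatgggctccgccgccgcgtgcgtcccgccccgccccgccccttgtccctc
Slc2a1: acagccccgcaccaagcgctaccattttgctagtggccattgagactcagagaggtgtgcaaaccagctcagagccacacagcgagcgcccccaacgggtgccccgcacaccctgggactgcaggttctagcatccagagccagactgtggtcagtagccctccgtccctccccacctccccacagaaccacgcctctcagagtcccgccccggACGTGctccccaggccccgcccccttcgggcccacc
Pgk1: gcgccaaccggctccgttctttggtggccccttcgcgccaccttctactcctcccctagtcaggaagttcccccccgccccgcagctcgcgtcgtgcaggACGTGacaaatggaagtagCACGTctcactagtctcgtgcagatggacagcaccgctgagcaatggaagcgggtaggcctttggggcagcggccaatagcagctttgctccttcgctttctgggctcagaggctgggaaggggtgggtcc
Fam162a: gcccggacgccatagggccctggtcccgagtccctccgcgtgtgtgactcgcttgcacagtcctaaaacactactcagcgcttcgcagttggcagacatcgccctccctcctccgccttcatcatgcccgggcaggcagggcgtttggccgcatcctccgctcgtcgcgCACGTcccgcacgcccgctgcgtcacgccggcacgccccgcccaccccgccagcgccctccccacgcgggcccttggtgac

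In Bnip3 the capitals form CACGTG, which reads the same on both strands and so counts as 2 overlapping matches. Pgk1 has 2 separate matches, and Slc2a1 and Fam162a have 1 each. Pgk1 itself stood at a median ratio of 2.47, from 0.15 at 8w pw1 to 3.45.

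**Figure D5:**
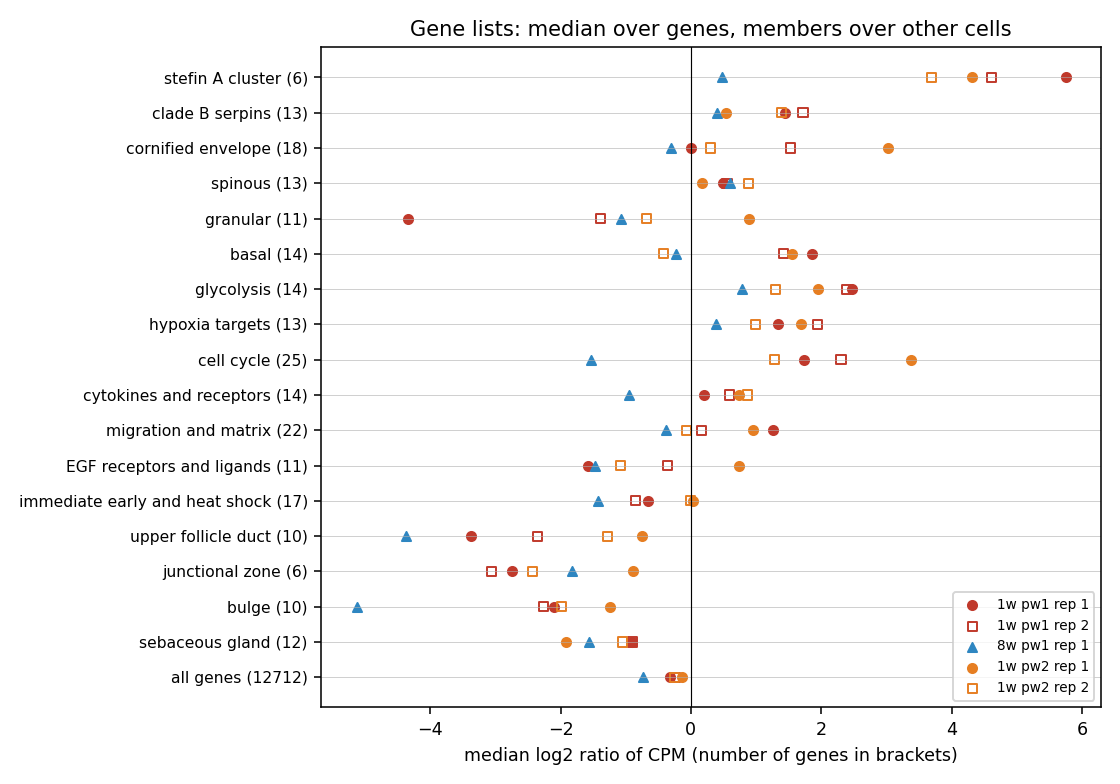
Median log2 ratio of CPM, members over other cells of the same plate, over the genes of each list, with 1 symbol per plate and the number of genes measured in brackets. Stefins, glycolysis and hypoxia targets lie right of 0 on all 5 plates, the follicle and sebaceous lists lie left of 0, and the cell cycle list lies left of 0 only on the 8w pw1 plate.

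Genes of the follicle from which these cells descend were low. Krt15, a keratin of follicle stem cells and basal cells, stood at 1.09, 0.328, 1.84, 11.9 and 113 CPM in members and at 632, 187, 606, 923 and 1164 CPM in other cells, a median ratio of -7.14. On the plates of the healing weeks it was detected in 10.7% of members and 31.0% of other cells, and 1 cell held 82.6% of its member counts. Lrig1, whose promoter drove the labelling, stood at 1.09, 1.81, 0, 11.8 and 3.60 CPM against 25.7 to 55.8 CPM (median ratio -3.68). In the junctional zone list 1 of 6 genes was over 2-fold higher and 2 lower on every plate, with a median of -2.56. In the duct list of 10 genes, 2 were over 2-fold lower and 8 lower at any size on all plates (16.9% of all genes), among them Cst6, a cysteine protease inhibitor of the upper follicle, at 428, 754, 57.1, 3007 and 895 CPM against 9566 to 31736 CPM, and Krt79, at 395, 580.3, 981, 1975 and 691 CPM against 3481 to 6536 CPM. On the plates of the healing weeks Cst6 was detected about as often in members (86.4%) as in other cells (88.0%) but at a median of 44.7 CPM per member and 781 CPM per other cell, while Krt79 was detected in 35.0% and 69.8%. The duct score per cell had a median of -0.11 in members and 0.20 in other cells there, with 28 of 103 members above the latter. In the bulge list of 10 genes 4 were over 2-fold lower on each plate, including Lhx2 (-4.16) and Lgr5 (-3.28), both genes of follicle stem cells, and the sebaceous list had a median of -1.42 with 1 of 12. Ly6a was the exception in the junctional zone list. This surface antigen of progenitors and of inflamed epithelium stood at 1094, 998, 352, 737 and 367 CPM in members and 139.9, 171, 92.2, 122 and 40.7 CPM in other cells, above every other-cell plate on each of the 5, and on the plates of the healing weeks it was detected in 88.3% of members and 32.2% of other cells.

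The 15 genes lowest in members had median ratios from -7.14 to -4.00, and 13 were over 2-fold lower on every plate. Besides Krt15 they held Cyp1b1 and Cyp2b19, cytochromes that oxidise retinoids, hormones or fatty acids, the iron exporter Slc40a1, the Wnt receptor Fzd3 and the channel family member Ano9. Cyp2b19 stood at 4.02, 21.5, 0, 42.0 and 27.6 CPM against 225 to 429 CPM. The class I light chain B2m was also lower in members on each plate, at 92.5, 98.5, 169.6, 270.2 and 252 CPM against 644 to 1024 CPM, as was the adhesion molecule Epcam, at 37.3, 36.3, 17.5, 81.5 and 150.1 CPM against 165 to 386 CPM. The stress keratin Krt17 did not go with Krt6 and Krt16. It stood at 833, 688, 11.1, 1816 and 1111 CPM in members and 1032 to 4286 CPM in other cells. In these sums it was lower in members on each plate. By cell the gap was small, with Krt17 detected in 82.5% of members and 78.5% of other cells of the healing weeks. The medians there were 328 CPM per member and 429 CPM per other cell. Krt6a stood at 9185, 7630, 1561, 1616 and 3149 CPM against 227 to 994 CPM, higher in members on each plate.

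Of 11 EGF receptor and ligand genes 0 were over 2-fold higher and 2 lower on every plate (median -0.49), against 1.82% lower over all genes. By cell, on the plates of the healing weeks, 52 of 103 members lay above the other-cell median for them. In the tail scale list, which includes Krt6a, 1 of 5 genes was over 2-fold higher and 0 lower on every plate (median -0.66). For it 92 of 103 members lay above by cell. In the remaining lists few genes were over 2-fold apart on every plate. Of 22 genes of migration and matrix 0 were over 2-fold higher and 0 lower on every plate (median 0.29). The counts were 0 and 2 of 17 for immediate early and heat shock genes (-0.64), 0 and 1 of 9 for interferon response genes (0.00) and 0 and 1 of 9 for other fatty acid binders and retinoid genes (-0.12). By cell, on the plates of the healing weeks, members lay somewhat above other cells in 3 of these lists, with 67 of 103 above the other-cell median for migration and matrix, 70 for immediate early and heat shock and 72 for fatty acid binders and retinoid, and 47 for interferon response.

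Members were also set beside only those other cells whose spinous score was at or above the member median (15 to 33 on each of the 5 plates, a comparison added after seeing the data). This selects other cells but not members, and lists of the layers shift with it by construction. The median ratio of Krt15 was -2.14 in place of -7.14, and it was no longer lower on every plate (-5.52 to 3.56). The bulge list moved from -2.31 to -0.65 and the sebaceous list from -1.42 to -0.25. The clade B serpin list moved from 1.64 to 0.98, and the spinous gene Krt2 from 3.47 to 1.44. Stefins (4.55), glycolysis (2.13) and hypoxia targets (1.94) stayed at a similar height, and the basal (2.22) and cell cycle (3.11) lists lay higher than in the full comparison. The median of all genes was -0.09 in this comparison.

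Whether members of the second healing differed from those of the first was tested on the summed counts of members on the 4 plates of 1w pw1 and 1w pw2, the only time points with at least 5 members on both plates. Time was not part of the rule, but a rule gene in this test is a description. edgeR's quasi-likelihood test called 0 of 10614 genes (0%) at an adjusted p under 0.05 and over 2-fold, with 649 at an unadjusted p under 0.05, whereas DESeq2 called 60 (0.565%), 35 higher (0.33%) and 25 lower (0.236%) in the second healing, of which 4 of the lower are rule genes (Fabp5, Krt6b, S100a8 and S100a9). A count of 0 at this size does not show that genes were alike. The 4 plates leave 2 residual degrees of freedom, and the biological coefficient of variation was 0.618.

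All 6 rule genes had lower values in the second healing. Krt6b stood at 8549 and 6903 CPM on the 1w pw1 plates and 339.8 and 843 CPM on the 1w pw2 plates, a log2 difference of -4.12 (SE 0.66). Fabp5 had -2.06 (SE 0.45) and S100a8 -2.84 (SE 0.65). In each of the 6 both second-healing plates lay below both first-healing plates, an order seen in 9.03% of the genes tested. The 5 stefins tested pointed the same way, with a median of -1.86 against 0.08 over all genes and 4 of 5 at an unadjusted p under 0.05, but 0 called by edgeR and 1, Csta3, by DESeq2. Members of the second healing also scored lower by the rule itself, with plate medians of 1.13 and 0.921 against 2.17 and 1.94, and the stefin score had a Spearman correlation of 0.67 with the rule score over the 110 members. The part of that difference in these values was not tested. Krt6a stood at 9185 and 7630 CPM and then at 1616 and 3149 CPM (-2.24, SE 0.56, edgeR adjusted p 0.805).

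Among the genes outside the rule with the lowest p were Gsta4 and Tcf7 on the lower side and Thbs1, Mill1, Zfp677, Cdsn and Chil1 on the higher side, each with an edgeR adjusted p of 0.805. Gsta4, a glutathione transferase that detoxifies products of lipid oxidation, stood at 158 and 124 CPM in 1w pw1 members and 3.61 and 11.4 CPM in 1w pw2 members (-4.61, SE 0.79). In the other cells of those plates it stood at 3.58 CPM or less. Thbs1, a matrix glycoprotein of healing tissue, stood at 0 and 0.493 CPM and then at 58.3 and 45.7 CPM (7.39, SE 1.22), and in other cells at 9.56 and 3.51 and then 70.6 and 18.8 CPM. Cdsn stood at 0.326 and 0 CPM and then at 66.3 and 15.99 CPM (7.15, SE 1.33). These genes were chosen for their p between these plates, so the gaps between plates are a description. Thbs1 had counts in 11 member cells, and 1 of them held 56.2% on 1w pw2 replicate 1 and 1 of 3 held 43.3% on replicate 2. Cdsn also had counts in 11, and a single cell held 92.2% of its member counts on 1w pw2 replicate 1 and another 94.3% on replicate 2, and 1 cell held 93.1% of those of Zfp677. DESeq2 gave adjusted p-values of 1.09e-06 for Gsta4, 3.21e-07 for Thbs1 and 1.02e-05 for Cdsn, so the call turns on the tool.

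Glycolysis, hypoxia and cell cycle genes lay near the median of all genes between the healings, with list medians of 0.26, -0.03 and -0.17 and 0 calls by edgeR or DESeq2 in each of the 14, 13 and 25 genes tested. Single glycolysis genes lay on either side. Slc2a1 stood at 129.5 and 94.4 CPM and then 447 and 282 CPM (1.24, SE 0.53, edgeR adjusted p 0.813). A single cell held 71.6% of its member counts on 1w pw2 replicate 2. Per member, its median was 51.7 and 19.8 CPM on the 1w pw1 plates and 242.9 and 11.9 CPM on the 1w pw2 plates. Pgk1 stood at 568 and 769.7 CPM and then 279.7 and 453 CPM (-1.27, SE 0.53, edgeR adjusted p 0.811). Spinous genes had a median of -0.36 and basal genes of -0.24, with 0 calls by edgeR and 1 each by DESeq2 (Skint3 and Krt15). Granular genes had a median of 1.49, with 5 of 8 above 0 and 4 at an unadjusted edgeR p under 0.05. Of these genes edgeR called 0 and DESeq2 3 (Asprv1, Cdsn and Klk13), and Klk13 was lower (-2.53). Duct genes had a median of 1.13, with 7 of 10 above 0, 4 at an unadjusted edgeR p under 0.05 and 0 calls by either tool. Krt36 and Krt84, keratins of the tail scale, had the largest list values, at 13.16 and 8.69, but a single cell of 1w pw2 replicate 2 held 99.9% and 99.7% of their member counts.

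The last test asked whether the step from the first to the second healing differed between members and the other cells of the same plates. It fitted members and other cells of the 4 plates apart, with the plate as a block and the interaction of membership and time. edgeR called 0 of 12635 genes (0%), with 575 at an unadjusted p under 0.05. Here too a count of 0 does not show that genes were alike. DESeq2 called 72 (0.57%), 41 higher (0.324%) and 31 lower (0.245%), with 3 rule genes among the 72 (Krt16, Krt6b and S100a8). Outside the rule genes, which membership draws on, the lowest p-values were those of Epgn and Prelid2 below 0 and Chil1 above it, each with an edgeR adjusted p of 0.329. Epgn stood at 74.9 and 82.8 CPM in 1w pw1 members and 7.48 and 18.7 CPM in 1w pw2 members, while other cells stood at 0 and 0 CPM and then 2.43 and 28.7 CPM. A single cell held 77.6% of its member counts on 1w pw1 replicate 2 and 80.5% on 1w pw2 replicate 2. Chil1, a chitinase-like secreted protein, stood at 1.20 and 0.328 CPM and then 27.6 and 82.5 CPM in members, and at 86.9 and 12.2 and then 4.96 and 35.3 CPM in other cells (7.51, SE 0.88). It rested on 7 member cells, and 1 of them held 74.6% of the counts. DESeq2 gave an adjusted p of 1.17e-10 for Chil1 and 1.68e-08 for Epgn. The lists named next were chosen after their values were seen. Of basal genes 12 of 14, of glycolysis genes 12 of 14 and of migration and matrix genes 17 of 22 had values below 0, while 11 of 13 spinous, 9 of 10 duct, 6 of 6 junctional zone, 8 of 10 granular and 14 of 17 immediate early genes had values above 0, against 6292 above and 6343 below over all genes. edgeR called 0 genes in each of these lists. DESeq2 called Krt15 in the basal list (4.23 in the edgeR fit), against the direction of most of that list. It also called Skint3 in the spinous list and Cdsn and Lor in the granular list. In that of migration and matrix it called Thbs1 (5.17 in the edgeR fit), again against most of the list, and Tnc (-9.43), which went with it.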

How the data were processed

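Sorted keratinocytes were sequenced by Smart-seq2 (25 cycles of PCR, single-end 75 bp reads). The expected counts deposited by the authors, which were not normalised, came from Salmon 0.13.1 run on the mouse transcriptome (GRCm38, mm10), per the study's methods and the submitters' processing notes. The table held 15652 genes and 696 cells, and 96.6% of its values were whole. Without molecular identifiers, PCR copies of a molecule are counted apart.

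Members and gene lists were chosen with earlier results of these data known. Of 381 listed genes 326 were found by symbol or RefSeq synonym. Coordinates are from GENCODE (GRCm38). Counts were summed per plate, apart for members and other cells, and rounded, since cells of a plate are not replicates. Tests used edgeR 4.0.16 in R 4.3.3 (TMM scaling, filterByExpr, quasi-likelihood, Benjamini-Hochberg over all genes tested) with DESeq2 1.42.0 as an alternative, and the scripts were tested on simulated counts. Shares of cells with a count were taken on the plates of the healing weeks, so that members and other cells share their time points. Across genes, member sums of replicate plates had a Pearson correlation of 0.858 in the first healing and 0.762 in the second, so each was kept as 1 sample. Genes named were the rule genes, genes of the lists, the 25 highest and 15 lowest ratios (mean of at least 50 CPM in the higher cells, same direction on all 5 plates, without predicted genes, pseudogenes and mitochondrial genes) and, where a test called under 5 genes, the 5 lowest p-values on either side. Those singled out within a list were chosen after their values were seen. Some genes that this rule names are not reported here. Alternatives were another scaling, tool, filter, prior, number of members, score, depth limit and weight of cells, a replicate block, and each plate left out in turn.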

Additional observations from a re-analysis of the deposited data

How the results depend on the processing

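The count of genes called between members of the healings (0 with edgeR) was 60 with DESeq2, 63 with no filter on low counts and 0 to 77 when each plate was left out in turn. Without 1w pw2 replicate 1 it was 16 and without 1w pw2 replicate 2 it was 77, with the lone plate assumed to vary like the others. With the replicate block it was 2 (Rptn and Zfp677). Same-numbered plates had a correlation of deviations of 0.149 and crossed numbers one of -0.149, and nothing else ties the numbers. The count for the difference in time between members and other cells (0) was 72 with DESeq2, 9 with no filter, 1 with every cell scaled equally (Chil1), 1 with the top 80 cells and 1 with the top 140 (S100a8 in both), and 2 to 14 with a plate left out, 2 without 1w pw1 replicate 1, 9 without its replicate 2, 5 without 1w pw2 replicate 1 and 14 without its replicate 2. It was 0 with no plate block. The 63 genes over 2-fold higher in members on each plate became 164 with the top 80 cells, 134 with a score without S100a8 and S100a9, 38 with a prior of 10 CPM and 152 against the spinous-matched cells chosen after seeing the data. With a plate left out they were 72 to 191, the 191 without 8w pw1 replicate 1. The 175 lower genes became 300.0 with the top 80 cells, 297 without S100a8 and S100a9 in the score and 74 with a prior of 10 CPM, and 222 to 347 with a plate left out, 347 without 1w pw2 replicate 1 and 272 without its replicate 2. Fewer plates make a rule over every plate easier to meet. The difference in share was 12.98 points with a score without S100a8 and S100a9. For the other changes the cause was not tested. Of the 41 genes named by ratio 0 of 533 values turned direction, and 36 moved by more than the spread between plates. Those outside the rule were chosen for the same direction on all 5 plates, so leaving out a plate could not turn them. That count of 0 is therefore no measure of stability. Of the 20 genes named by a test 0 of 309 values turned direction. They were chosen for the lowest p on these same plates, and some alternatives refitted the same counts, so this too is no measure of stability.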
